A study of Mus musculus with 14 samples.

Results

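The genes described here are 33 genes of glycolysis and of the response to low oxygen, measured in macrophages and monocytes from mice with a traumatic brain injury (TBI). They were chosen by gene symbol: every probe of the array whose transcript accession maps to 1 of the 33 symbols was taken, 49 probes in all, and each gene was read from its brightest usable probe. Of the 33 genes, 29 could be tested, among 21967 features tested on the array, 12963 of which carry a gene symbol. The remaining 4 are Pfkl, Gapdh and Pkm, whose very bright spots were marked as outliers by the scanner software on too many arrays, and Adm, which was not well above background on any array.

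RNA was measured on 14 single-colour arrays in 4 groups, all from male mice of the YARG strain, which carries a fluorescent reporter of the gene Arg1 (arginase 1, an enzyme of arginine breakdown), aged 12 to 16 weeks. Macrophages from the brain were sorted 1 day after TBI by controlled cortical impact into Arg1+ (4 arrays) and Arg1- cells (4 arrays), and blood monocytes came from mice 1 day after TBI (3 arrays) and from untreated, normal mice (3 arrays). The sort used antibodies that included CD45, CD11b and Ly6G, and amplified RNA was hybridised. No group here is labelled as sham-operated, the labels do not say whether a replicate is 1 animal or a pool, and p-values therefore measure only the spread between these samples, which may be partly technical. The 4 groups all carry the reporter, and a level is the sum over a sorted population, so that fewer expressing cells and less RNA per cell cannot be told apart.

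Glycolysis splits glucose into pyruvate in the cytosol, and when oxygen or mitochondrial capacity is short the pyruvate is reduced to lactate and exported. Cells sense oxygen through prolyl hydroxylases, which mark the alpha subunit of hypoxia-inducible factor (HIF) for destruction. When oxygen falls the factor accumulates and binds promoters of most glycolytic genes and of a set of target genes, which include one of the hydroxylases itself. In macrophages the same programme is also known to respond to inflammatory stimuli.

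Levels are given as log2 of the processed signal over the array's 75th percentile, with values under 0.05 raised to 0.05, so that the lowest possible level is -4.32. A difference is the difference of group means on that scale with its standard error, and a gene is called where limma's adjusted p (Benjamini-Hochberg over all 21967 features) is under 0.05. Levels of different genes come from different probes and are not compared. The arrays' 75th percentile ran from 119 to 418 intensity units, between 50.4% and 68.7% of probes were well above background, no probe was saturated, and Pearson correlations between arrays of a group were 0.937 or higher. The level of Arg1 followed the sort labels: it was 6.20, 6.21 and 6.82 in the 3 usable Arg1+ arrays, between 2.12 and 4.20 in the Arg1- arrays, and -3.13 or lower in every blood array. Arg1- cells were thus lower in Arg1 than Arg1+ cells, but not without it.

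Arg1+ and Arg1- macrophages of the injured brain were compared first. Of the 29 tested genes, 10 were higher in Arg1+ cells and 0 were lower, against a background of 2.14% of all features called higher and 2.90% called lower. The 10 genes were P4ha2, Egln3, Hilpda, Ndrg1, Mxi1, Pgam1, Pfkfb3, Aldoa, Tpi1 and Gpi1. The median difference of the 29 genes was 0.66, where that of all features was 0, and 26 of the 29 differences were above 0. For 18 genes every usable Arg1+ array lay above every usable Arg1- array, and for 1 gene below (7.49% and 7.37% of all features). With quantile normalization the split was 4 higher and 1 lower, the lower gene being Pfkp. The share of all features called with that normalization is not given here.

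**Figure D1:**
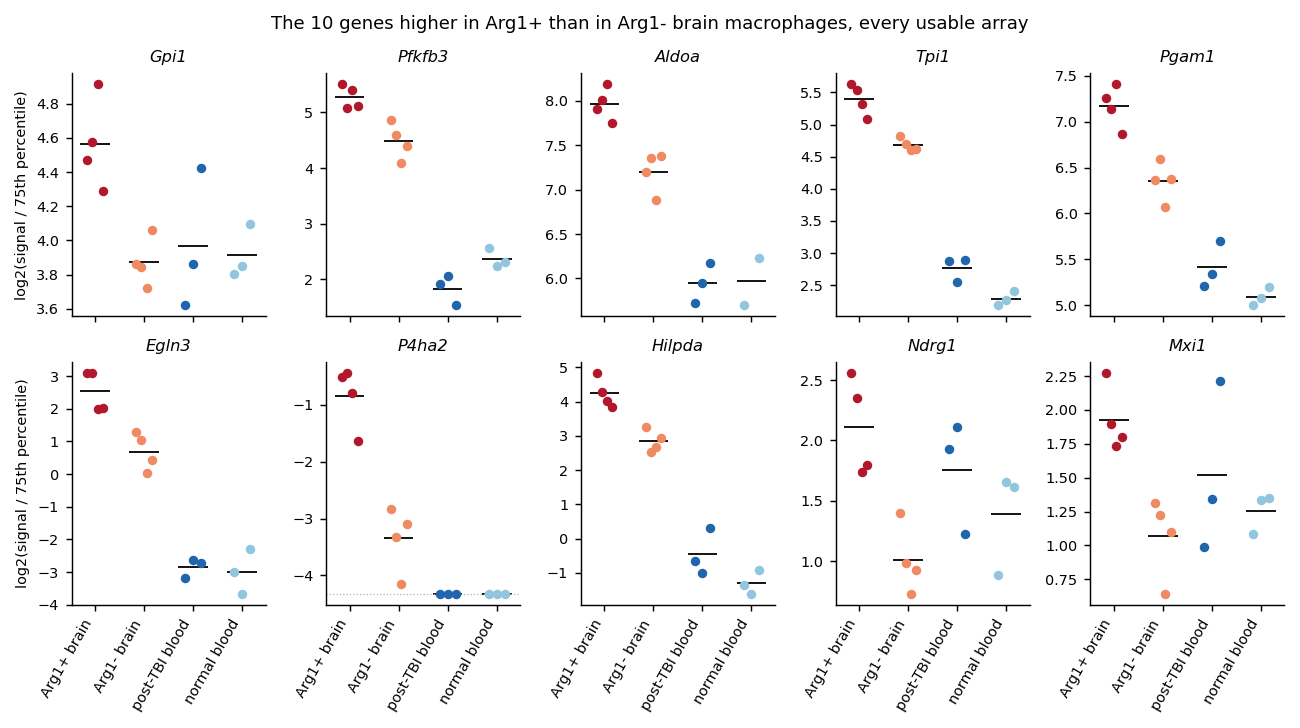
Levels of the 10 genes called higher in Arg1+ than in Arg1- brain macrophages. Each point is 1 usable array, each bar a group mean, and the vertical axis is log2 of the signal over the array's 75th percentile, on a scale of its own for each gene; the dotted line in the P4ha2 panel is the lowest possible level of -4.32. In all 10 panels the Arg1+ points lie above the Arg1- points, while the blood points of Gpi1, Ndrg1 and Mxi1 overlap those of brain cells.

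The largest differences were in genes that respond to low oxygen. P4ha2, a subunit of the prolyl 4-hydroxylase that modifies collagen, had levels of -0.51, -0.44, -0.80 and -1.63 in the Arg1+ arrays and -2.83, -3.32, -4.15 and -3.10 in the Arg1- arrays. The groups did not overlap, and 3 of the 4 Arg1- arrays were well above background. The difference was 2.51 ± 0.30 (SE; adjusted p = 0.000155), or 5.68-fold. Its paralog P4ha1 had 2.72, 3.21, 3.03 and 3.00 in Arg1+ arrays and 2.61, 2.63, 2.37 and 2.26 in Arg1- arrays, again with no overlap, but the difference of 0.52 ± 0.17 was not called (adjusted p = 0.107).

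Egln3, the oxygen-sensing prolyl hydroxylase PHD3 and a HIF target, had levels of 3.10, 3.10, 2.00 and 2.02 in the Arg1+ arrays and 1.28, 1.04, 0.02 and 0.43 in the Arg1- arrays. Every Arg1+ array was higher than every Arg1- array. The difference was 1.86 ± 0.36 (adjusted p = 0.00646), or 3.64-fold. Egln1, which encodes PHD2, the main hydroxylase that controls HIF, had 2.02 to 2.32 in Arg1+ and 1.41 to 1.66 in Arg1- arrays with no overlap, and its difference of 0.58 ± 0.16 lay just outside the threshold (adjusted p = 0.0504). Hif1a, the oxygen-regulated subunit itself, had 1.64, 1.25, 0.87 and 1.16 in Arg1+ arrays and 0.52, 1.12, 0.63 and 0.42 in Arg1- arrays. These groups overlapped through 1 Arg1- array, and the difference was 0.56 ± 0.25 (adjusted p = 0.254). HIF is controlled mainly through its protein, which these arrays do not measure.

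Hilpda, a lipid droplet protein that inhibits the lipase Atgl, had 4.84, 4.27, 4.01 and 3.85 in Arg1+ arrays and 3.25, 2.54, 2.67 and 2.94 in Arg1- arrays. The groups were separate, and the difference was 1.39 ± 0.28 (adjusted p = 0.00972), or 2.63-fold. A second Hilpda probe gave 1.22. Ndrg1, a stress-responsive gene, had 2.56, 2.35, 1.74 and 1.80 in Arg1+ and 1.40, 0.98, 0.73 and 0.92 in Arg1- arrays, a difference of 1.10 ± 0.25 (adjusted p = 0.0191). Mxi1, which encodes an antagonist of the transcription factor Myc, had 2.27, 1.90, 1.73 and 1.80 in Arg1+ and 1.32, 1.23, 0.64 and 1.10 in Arg1- arrays, a difference of 0.86 ± 0.23 (adjusted p = 0.0475).

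Other hypoxia-induced genes were not called. Bnip3, a mitochondrial protein of mitophagy, had 2.75 to 3.50 in Arg1+ arrays and a wide range of 1.51 to 3.06 in Arg1- arrays, so that the groups overlapped (difference 0.76 ± 0.28, adjusted p = 0.153). Higd1a, a mitochondrial protein of the respiratory chain, differed by 0.46 ± 0.19 and Kdm3a, a histone H3 lysine demethylase, by 0.35 ± 0.18, where dimmer second probes gave -0.21 and 0.15. Ankrd37 differed by 0.01 ± 0.33, with Arg1+ levels of -0.22, 0.67, 0.38 and -0.20 on both sides of the Arg1- levels of 0.29, -0.04, 0.34 and 0.03. Car9, a cell surface carbonic anhydrase, was near the detection limit. It exceeded background clearly on 2 Arg1+ arrays and on 4 Arg1- arrays, and differed by -0.11 ± 0.35. The hypoxia-induced genes thus ranged from -0.11 to 2.51 among themselves.

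The promoters of these genes were examined for the core of the HIF binding site. The genes were listed for glycolysis and the response to low oxygen, where HIF is known to bind many promoters. A share above that of other promoters can therefore follow from the list and is no result of these arrays. Promoter entries from RefSeq (build GRCm38.p6) were found for 32 of the 33 genes, with 46 start sites. In the 250 bases before each start, the letters ACGTG on either strand occurred at 22 of 46 starts (47.8%), and GCGTG on either strand also at 22 of 46, against 16.6% and 28.2% of all 32851 promoter entries of the same length. Among entries of genes with a probe on the array the shares were 19% and 36.9%. The median GC content was 62.8% in the members' windows and 57.2% in those of genes with a probe, and the part of GC content in these shares was not tested. Counted by gene, ACGTG occurred before at least 1 start in 7 of the 9 called genes with an entry (77.8%), in 11 of the 19 tested genes that were not called (57.9%) and in 21.7% of genes with a probe. GCGTG went the other way, with 4 of 9 called genes (44.4%), 13 of 19 not called (68.4%) and 40.9% of genes with a probe. At least 1 of the motifs was present in 7 of 9 called and 18 of 19 uncalled genes (94.7%), against 51.6% of genes with a probe, and the differences between called and uncalled genes were not tested. The letters CACGTG hold ACGTG on both strands, so that 1 site can be matched on each. The shares count starts or genes with at least 1 match and do not change with this. A match is a description of the letters, not a binding site.

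The windows of P4ha2 (chr11:54100674-54100923, plus strand) and Egln3 (chr12:54203875-54204124, minus strand) are shown whole, since these genes had the largest differences, with ACGTG and GCGTG on either strand in capitals:
P4ha2: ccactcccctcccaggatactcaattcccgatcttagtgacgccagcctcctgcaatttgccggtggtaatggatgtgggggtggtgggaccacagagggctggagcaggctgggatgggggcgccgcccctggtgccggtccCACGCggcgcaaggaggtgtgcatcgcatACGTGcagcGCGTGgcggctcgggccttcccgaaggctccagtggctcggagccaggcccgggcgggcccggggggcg
Egln3: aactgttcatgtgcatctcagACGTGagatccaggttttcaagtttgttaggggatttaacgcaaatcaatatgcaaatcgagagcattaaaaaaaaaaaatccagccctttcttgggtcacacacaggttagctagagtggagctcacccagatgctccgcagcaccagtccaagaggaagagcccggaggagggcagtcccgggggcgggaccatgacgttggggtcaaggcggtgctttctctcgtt
P4ha2 held the letters in both forms within a short stretch close to the start, whereas Egln3 held a single ACGTG at the far end of the window, 229 bases before the start.

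Windows of 29 bases around ACGTG show its flanks. Those of the called genes Hilpda, Pfkfb3, Pgam1, Aldoa and Mxi1 are set against those of Ldha, Slc16a3 and Bnip3, which were not called, each read on the strand where ACGTG (capitals) appears:
Hilpda: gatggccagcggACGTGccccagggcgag
Pfkfb3: ctccgcgccgtgACGTGccaagctgtgac
Pgam1: cgctccttgcttACGTGcgctccgtgact
Aldoa: cgccccgctaggACGTGactcgagccaca
Mxi1: cctcggcacccgACGTGcactggcggggg
Ldha: ggcccagcctacACGTGggttcccgcacg
Slc16a3: caggcagcggtgACGTGcgcgggggacgt
Bnip3: cgcacgcgccgcACGTGccacacgctccc
Their positions in GRCm38.p6 are Hilpda chr6:29272571-29272599 (plus strand, 43 bases before a start), Pfkfb3 chr2:11553973-11554001 (minus strand, 60 bases before a start), Pgam1 chr19:41911745-41911773 (plus strand, 114 bases before a start), Aldoa chr7:126799364-126799392 (plus strand, 202 bases before a start), Mxi1 chr19:53329335-53329363 (plus strand, 66 bases before a start), Ldha chr7:46845745-46845773 (plus strand, 47 bases before a start), Slc16a3 chr11:120949028-120949056 (plus strand, 27 bases before a start) and Bnip3 chr7:138909597-138909625 (minus strand, 107 bases before a start). Gpi1 and Tpi1, which were called, held neither motif in this window, and Ankrd37, which did not differ, held both.

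In glycolysis itself the called genes, Gpi1, Pfkfb3, Aldoa, Tpi1 and Pgam1, were spread along the pathway. None of them was called with quantile normalization (limma adjusted p between 0.101 and 0.82). The same held with the authors' log2 table (between 0.0663 and 0.298). Of the genes of uptake and hexose phosphates, Gpi1, the isomerase that turns glucose 6-phosphate into fructose 6-phosphate, had 4.47, 4.57, 4.91 and 4.29 in Arg1+ and 3.86, 3.84, 3.72 and 4.06 in Arg1- arrays (difference 0.69 ± 0.18, adjusted p = 0.0428). Slc2a1, the glucose transporter GLUT1, had 3.26, 2.65, 2.59 and 2.27 against 2.34, 1.83, 1.84 and 2.33, with overlap, and differed by 0.61 ± 0.40 (adjusted p = 0.501). The hexokinases, which trap glucose in the cell, gave 0.56 ± 0.29 for Hk2 and 0.44 ± 0.25 for Hk1, the latter from 4 Arg1+ and only 2 usable Arg1- arrays. The other 3 usable Hk1 probes, well above background on all 14 arrays, gave 0.18, 0.19 and -0.02.

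The phosphofructokinase step was the one where members went in different directions. Pfkfb3, which makes the activator fructose 2,6-bisphosphate, had 5.50, 5.08, 5.40 and 5.12 in Arg1+ and 4.86, 4.58, 4.10 and 4.39 in Arg1- arrays (difference 0.79 ± 0.18, adjusted p = 0.0188). A second usable probe gave 0.49 and was not called (adjusted p = 0.139). Pfkp, the platelet isoform of phosphofructokinase, had 3.21, 3.35, 3.01 and 3.04 in Arg1+ and 3.83, 4.02, 3.81 and 3.53 in Arg1- arrays. Every Arg1+ array was lower, on all 4 slides, but the difference of -0.65 ± 0.20 was not called (adjusted p = 0.0735), and a second, dimmer Pfkp probe gave 0.19. Pfkfb4, a paralog of Pfkfb3, had 0.88, 0.97, 0.75 and 0.16 against 1.45, 0.80, 1.34 and 1.44, a difference of -0.57 ± 0.22 (adjusted p = 0.176).

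In lower glycolysis all 6 tested genes had positive differences, 3 of them called. Tpi1, triose phosphate isomerase, had 5.63, 5.54, 5.31 and 5.09 in Arg1+ arrays and 4.82, 4.70, 4.60 and 4.61 in Arg1- arrays. The spread within each group was smaller than the gap between the means, and the difference was 0.71 ± 0.15 (adjusted p = 0.0111). Pgam1, phosphoglycerate mutase, had 7.26, 7.14, 7.41 and 6.86 against 6.36, 6.59, 6.07 and 6.38 (difference 0.82 ± 0.18, adjusted p = 0.0157). Aldoa, the aldolase of most tissues, had 7.91, 8.01, 8.19 and 7.75 against 7.20, 7.35, 6.88 and 7.38 (difference 0.76 ± 0.20, adjusted p = 0.0476).

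Pgk1, phosphoglycerate kinase, had no overlap either, with 6.22, 6.22, 6.08 and 5.85 against 5.23, 5.56, 4.97 and 5.27, but missed the threshold (difference 0.83 ± 0.24, adjusted p = 0.0592). Eno1, the common enolase, had 6.53 to 7.14 against 5.84 to 6.41 (difference 0.66 ± 0.22, adjusted p = 0.0993). Eno2, the enolase typical of neurons, had lower signal and overlapped between groups (0.35 ± 0.22). Where the outlier marks were ignored, Gapdh gave 0.95 ± 0.26 (adjusted p = 0.0474), Pfkl 0.73 ± 0.20 (adjusted p = 0.0506) and Pkm 0.62 ± 0.19 (adjusted p = 0.084), an alternative chosen after seeing the data. The marks covered 7, 8 and 11 of the 14 arrays for these 3 genes.

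None of the 3 genes of the pyruvate and lactate branch was called in the fit reported here. Ldha was called with the authors' log2 table (0.62, adjusted p = 0.0372). It was also called with slide as a block, but no slide held a usable pair for it, so that value is not a within-slide difference. Pdk1 was called with a floor of 0.2 (adjusted p = 0.0403). Ldha, the lactate dehydrogenase subunit that favours lactate formation, had 6.53 and 6.78 in the 2 usable Arg1+ arrays and 6.01 and 5.52 in the 2 usable Arg1- arrays (difference 0.89 ± 0.27, adjusted p = 0.11). Slc16a3, the lactate exporter MCT4, had 3.30, 3.08, 3.19 and 2.52 in Arg1+ arrays and 2.79, 2.29 and 2.72 in the 3 usable Arg1- arrays (0.42 ± 0.25). Pdk1, the kinase that keeps pyruvate out of the mitochondria by inhibiting pyruvate dehydrogenase, had -0.65, -0.63, -1.13 and -1.41 against -1.50, -1.66, -1.52 and -2.09. Every Arg1+ array was higher, and the difference of 0.74 ± 0.24 was not called (adjusted p = 0.0918).

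**Figure D2:**
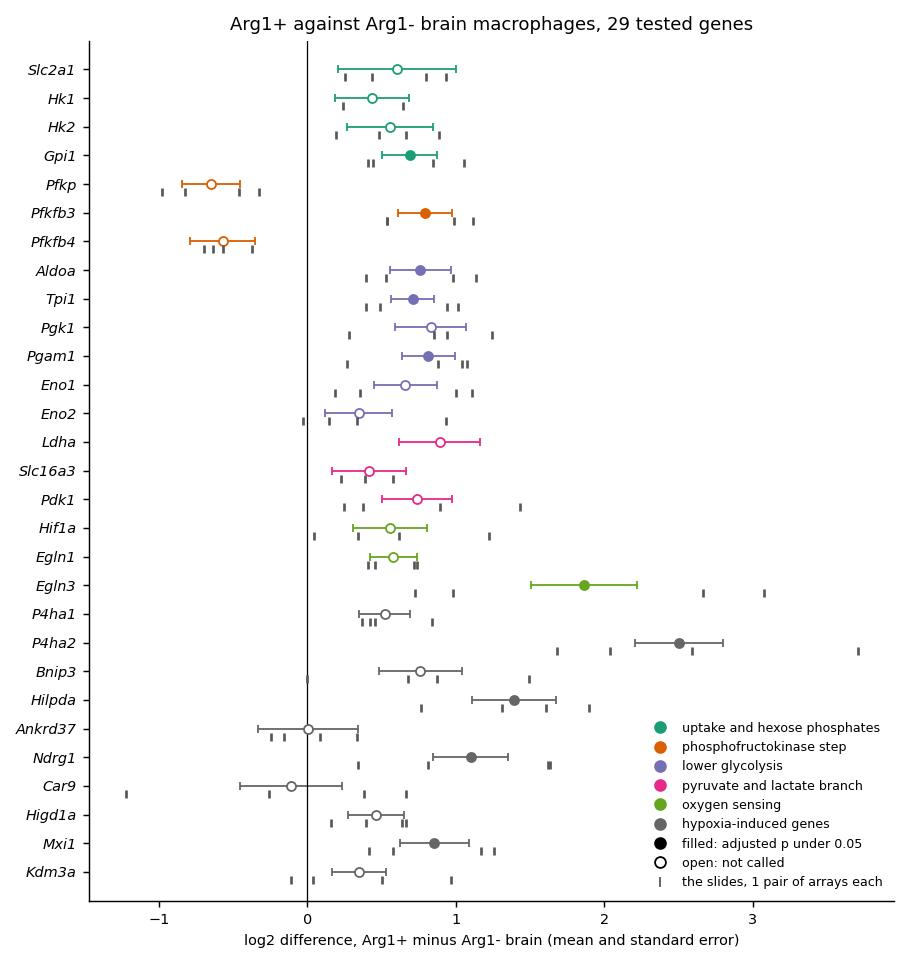
Differences between Arg1+ and Arg1- brain macrophages (log2, horizontal axis) for the 29 tested genes, ordered and coloured by role. Circles are differences of group means with standard errors, filled where limma's adjusted p was under 0.05, and short vertical marks are the differences on single slides, for slides with a usable pair. Filled circles run from 0.69 for Gpi1 to 2.51 for P4ha2, and only Pfkp, Pfkfb4 and Car9 lie below 0.

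The calls differed in how firmly they stood. P4ha2, Egln3 and Hilpda were called in all 28 alternative settings, Tpi1 in 25, Pgam1 in 24, Ndrg1 in 22 and Pfkfb3 in 20. Of these settings 14 are fits without 1 array. Tpi1 lost its call with normexp background correction, quantile normalization and the authors' log2 table. Pfkfb3 lost it with the same settings and with the percentile over probes above background on all arrays. Ndrg1 kept its call in the settings where Tpi1 lost it, and lost it with that percentile and without a filter on dim probes. Pgam1 lost it with quantile normalization, the authors' table and the replicate block. Gpi1 was called in 10 and Mxi1 in 8 of 28, and Aldoa in 7 of the 26 settings in which it could be tested. The differences of these 10 genes stayed above 0 throughout, from 0.19 upwards for Aldoa and 1.17 upwards for P4ha2. Without Arg1- replicate 3 the count of called members was 4, without Arg1- replicate 4 or Arg1+ replicate 1 it was 5, and without Arg1+ replicate 2 or 3 it was 6. Leaving out Arg1- replicate 3 ended the calls of Pfkfb3 (adjusted p = 0.0717), Pgam1 (0.0604) and Ndrg1 (0.0709). Aldoa, Gpi1 and Mxi1 missed the threshold without most single arrays (adjusted p at most 0.144, 0.138 and 0.161): Aldoa, which could not be tested without normal blood replicate 2 or 4, kept its call only without post-TBI blood replicate 4, Mxi1 only without post-TBI blood replicate 1 or 4, and Gpi1 only without Arg1+ replicate 4, normal blood replicate 4 or post-TBI blood replicate 1 or 4. Pfkfb3 was also lost without Arg1- replicate 4, Arg1+ replicate 1 or Arg1+ replicate 3 (adjusted p at most 0.0608), and Ndrg1 without Arg1- replicate 4, Arg1+ replicate 1 or Arg1+ replicate 2 (at most 0.059). In the other direction, Egln1 and Pfkp were called without post-TBI blood replicate 1 (adjusted p = 0.0352 and 0.0451), Bnip3 without Arg1- replicate 2 (0.0451), and Pgk1 (0.00542), Eno1 (0.0345), Egln1 (0.00914) and Pfkp (0.00836) without post-TBI blood replicate 4, which enters this comparison only through the shared estimate of spread.

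Each slide held 1 Arg1+ and 1 Arg1- array, so the comparison could be made within slides. The median difference of the members was 0.89 on slide 1, 0.42 on slide 2, 0.28 on slide 3 and 0.85 on slide 4, and 22 of 27, 23 of 27, 24 of 28 and 25 of 27 members with a usable pair were higher in the Arg1+ array. Arrays of the same slide deviated together to different degrees, with correlations of 0.165, 0.045, 0.428 and 0.592 on slides 1 to 4. With slide as a block 14 members were called higher and 0 lower, the added ones being Ldha (1.06, adjusted p = 0.0487), Pgk1 (0.0435), Egln1 (0.0385) and Bnip3 (0.0483). Ldha had no slide with a usable pair, so its value in that fit is not a within-slide difference. The share of all features called in that fit is not given here. All 10 called genes were higher in Arg1+ on all 4 slides. The signal of the arrays moved with these values: the 75th percentile of the Arg1+ array was 119 against 236 on slide 1, 146 against 233 on slide 2 and 216 against 418 on slide 4, but 272 against 151 on slide 3, where the median difference was lowest. On that slide, with the Arg1+ array the brighter one, the difference was 1.68 for P4ha2, 1.31 for Hilpda, 0.98 for Egln3, 0.82 for Ndrg1 and 0.27 for Pgam1.

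**Figure D3:**
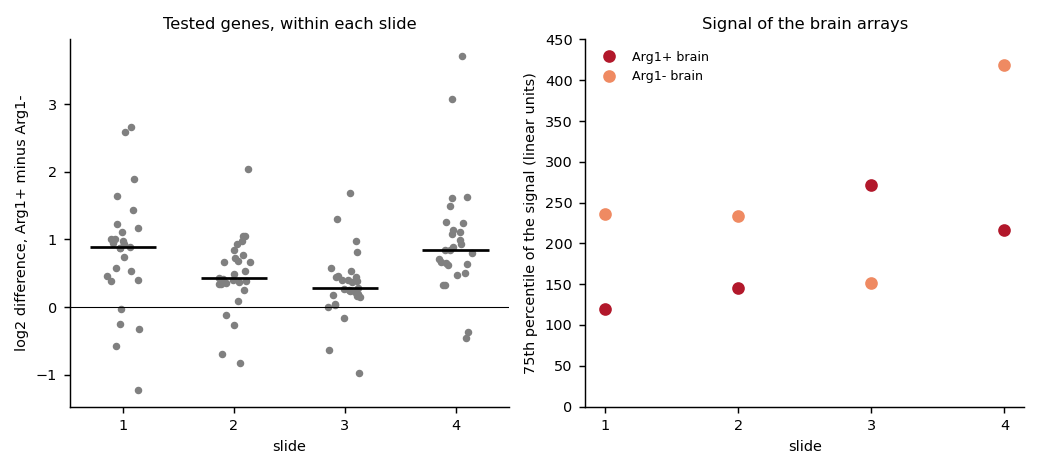
Left, the difference between the Arg1+ and the Arg1- array on each slide (log2) for every tested gene with a usable pair, with the median as a bar. Right, the 75th percentile of the processed signal of the same arrays in linear units. The Arg1+ array was dimmer on slides 1, 2 and 4 and brighter on slide 3, and the median difference was 0.28 on slide 3 and between 0.42 and 0.89 on the others.

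Markers of other cells also differed between the brain populations. Of 11 tested neutrophil markers 8 were lower in Arg1+ cells and 0 higher, and their summed linear level was 7.44 to 16.3 in Arg1+ and 32.8 to 143 in Arg1- arrays. The neutrophil gene Elane was not well above background on any Arg1+ array and was on all 4 Arg1- arrays. Of 7 dendritic cell markers 5 were lower, with sums of 0.705 to 1.00 against 4.58 to 6.13, and Kmo was not well above background on any Arg1+ array. Macrophage and monocyte markers (7 tested, 1 higher, 1 lower) had overlapping sums of 148 to 197 and 139 to 188, and microglia markers (8 tested, 0 called) had 40.7 to 64.4 and 30.8 to 47.5. Of the platelet markers 1 of 4 was higher (Ppbp; sums of 6.44 to 12.3 against 1.32 to 2.41). In the neuron list 1 of 4 was higher (Nefl), in the astrocyte list 1 of 5 (Gja1), and in the natural killer cell list 1 of 5 was lower (Klrd1). None was called in the T cell, B cell, red cell, oligodendrocyte and endothelium lists. The part of these cells in the differences of the glycolysis and hypoxia genes was not tested.

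The other genes of these pathways are given for comparison, from companion lists that are not independent of earlier results. Of 23 other tested genes of glycolysis, 2 were higher, the hexokinase Hk3 (1.05 ± 0.27, adjusted p = 0.0385) and the pyruvate dehydrogenase phosphatase Pdp1 (0.99 ± 0.24, adjusted p = 0.0268), and the glucose transporter Slc2a6 was lower (-1.28 ± 0.24, adjusted p = 0.00618). Their median difference was 0.18. Of 38 other tested HIF pathway and hypoxia genes, 6 were higher and 0 lower, with a median of 0.27. Among them were Slc6a8, the creatine transporter (1.09 ± 0.23, adjusted p = 0.0103), and Ero1a, an oxidase of the endoplasmic reticulum (0.98 ± 0.22, adjusted p = 0.0146). In glycogen metabolism 2 of 12 were higher, the branching enzyme Gbe1 (0.94 ± 0.21) and the phosphoglucomutase Pgm1 (0.88 ± 0.18). In the pentose phosphate pathway 1 of 6 was higher (H6pd, 0.69 ± 0.14), and of 29 genes of pyruvate entry and the tricarboxylic acid cycle 1 was higher, Aco1 (0.54 ± 0.14).

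Blood monocytes of injured and normal mice were compared next. None of the 29 genes was called, against 0.109% of all features called higher (24 features) and 0.0410% called lower (9 features). With the percentile taken over probes above background on all arrays, the split over all features was 18 higher and 16 lower. The members' median difference, post-TBI minus normal, was 0.02. At an unadjusted p under 0.05 limma gave 4 members and 1426 of all features. For 4 members every usable post-TBI array was above every usable normal array, and for 1 below, where 4.49% and 4.77% of all features did so. The count of 33 called features moved from 2 without post-TBI blood replicate 3 to 60 without post-TBI blood replicate 1, and the count of members stayed at 0 in all 14 fits without 1 array.

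The 4 genes with an unadjusted p under 0.05 were Hilpda, Tpi1, Car9 and Pfkfb3. Tpi1 had 2.88, 2.54 and 2.89 in post-TBI and 2.19, 2.27 and 2.40 in normal arrays, with no overlap (difference 0.48 ± 0.17, adjusted p = 0.548). Hilpda had -0.66, -1.02 and 0.32 against -1.36, -1.61 and -0.92, with a slight overlap (0.85 ± 0.33, adjusted p = 0.641). Pfkfb3 was lower in every post-TBI array, at 1.91, 2.06 and 1.54 against 2.57, 2.25 and 2.31 (-0.54 ± 0.21, adjusted p = 0.644). Car9, at the detection limit, differed by 0.87 ± 0.40. Pgam1 (0.32 ± 0.21), Ldha (0.25 ± 0.27, 2 usable arrays a group) and Pdk1 (0.54 ± 0.27) were the other genes whose post-TBI arrays were all higher, and P4ha2 was not above background on any blood array. A p that misses the threshold with 3 arrays a group does not show that the genes were alike. The summed marker levels in post-TBI against normal blood were 65.1 to 123 against 8.16 to 70.8 for red cells, 10.8 to 88.0 against 1.84 to 28.8 for neutrophils, and 7.72 to 15.4 against 1.68 to 5.36 for platelets. No marker of these lists was called. All 3 red cell and all 4 platelet markers had a positive difference, but only 3 of the 11 neutrophil markers did (median -0.32). The neutrophil sum of 88.0 was that of post-TBI replicate 4, with 10.8 and 15.5 in replicates 1 and 3. Only the sums of platelet markers and of B cell markers (4.20 to 4.93 against 3.07 to 4.01) did not overlap, among the 13 marker lists. Their part in these values was not tested.

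Brain macrophages were then compared with blood monocytes of injured mice. Both comparisons use the same 3 blood arrays, and they are given side by side as separate comparisons. In Arg1+ cells 24 of the 29 genes were higher and 1 lower than in blood, where 19.9% of all features were higher and 20.0% lower. In Arg1- cells 20 were higher and 2 lower, where 17.0% and 16.4% of all features were. The median difference was 2.01 for Arg1+ and 1.15 for Arg1- cells, against -0.03 and -0.02 for all features.

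**Figure D4:**
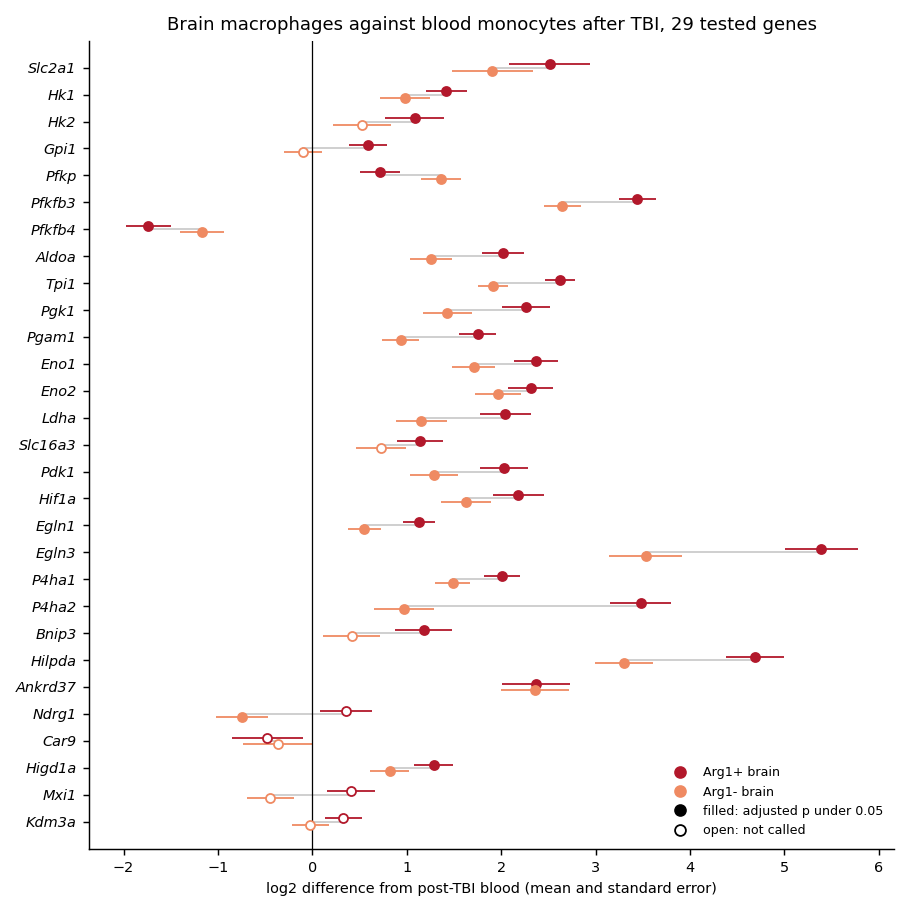
Difference from post-TBI blood monocytes (log2, horizontal axis) for the 29 tested genes in Arg1+ and in Arg1- brain macrophages, with standard errors; filled circles have an adjusted p under 0.05. Both colours lie to the right for most genes, with 5.39 and 3.53 for Egln3, while Pfkfb4 lies to the left in both. The values of P4ha2 are measured against blood arrays at the lowest possible level.

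The members of the hypoxia response were spread widely in their distance from blood, with group medians of 2.18 in Arg1+ and 1.63 in Arg1- cells for the 3 oxygen-sensing genes and of 1.23 and 0.62 for the 10 hypoxia-induced genes, against 2.29 and 1.57 for lower glycolysis. Egln3 and Hilpda stood furthest of all members in both populations. Egln3 had -3.17, -2.63 and -2.72 in post-TBI blood, below every brain array by more than the spread within any group, and differed by 5.39 ± 0.39 in Arg1+ (adjusted p = 4.2e-08) and 3.53 ± 0.39 in Arg1- cells (adjusted p = 6.12e-06). Those are 42.0-fold and 11.6-fold. Hilpda differed by 4.69 ± 0.31 and 3.30 ± 0.31, or 25.9-fold and 9.84-fold. P4ha2 was not well above background in blood, where every array stood at the lowest possible level of -4.32. Measured against that level, P4ha2 was 11.1-fold higher in Arg1+ cells (adjusted p = 6.31e-07), a value that depends on the chosen floor. Over the 28 alternative settings the log2 difference ran from 1.48 to 5.49 and was called in all. For Arg1- cells the value was 1.96-fold (adjusted p = 0.0289), called in 17 of 28 settings. That call was lost without Arg1- replicate 1, 2 or 4 or any post-TBI blood array (adjusted p between 0.0528 and 0.0864). It was also lost with normexp background correction (log2 difference 0.52) and the percentile over probes above background on all arrays (0.02). A floor of 0.2, no filter on dim probes and the replicate block each ended it too.

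Ankrd37, which did not differ between the brain populations, was 2.37 ± 0.36 and 2.36 ± 0.36 above blood. Its levels were -1.50, -1.86 and -3.25 in post-TBI blood, and the lowest brain array stood at -0.22. Hif1a, with -1.54, -0.69 and -0.64 in post-TBI blood, differed by 2.18 ± 0.27 and 1.63 ± 0.27, P4ha1 by 2.01 ± 0.19 and 1.49 ± 0.19, and Higd1a by 1.29 ± 0.21 and 0.82 ± 0.21. A second, dim Higd1a probe gave 0.21 and 0.42 and was not called in either. Egln1 was closer, at 1.13 ± 0.17 and 0.55 ± 0.17, and its call in Arg1- cells was lost without Arg1- replicate 1 or 4 or post-TBI blood replicate 1 or 3 (adjusted p between 0.051 and 0.0991). That call was also lost with only the 2 groups fitted (adjusted p = 0.0722). A second Egln1 probe gave 1.30 and 0.61, the latter not called (adjusted p = 0.0591).

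Not all genes of the hypoxia group were above blood. Bnip3 differed by 1.18 ± 0.30 in Arg1+ cells (adjusted p = 0.00593) and by 0.42 ± 0.30 in Arg1- cells (adjusted p = 0.332). Ndrg1, at 1.93, 2.12 and 1.22 in post-TBI blood, differed by 0.36 ± 0.27 in Arg1+ cells and was lower in Arg1- cells, by -0.75 ± 0.27 (adjusted p = 0.0467). That last call was held in 11 of 28 settings, and was lost without Arg1- replicate 2, 3 or 4, Arg1+ replicate 2 or 4, normal blood replicate 3 or 4, or post-TBI blood replicate 1 or 3 (adjusted p between 0.0519 and 0.199). Mxi1 (0.41 ± 0.25 and -0.45 ± 0.25), Kdm3a (0.33 ± 0.20 and -0.02 ± 0.20) and Car9 (-0.48 ± 0.37 and -0.37 ± 0.37) were not called in either comparison from their brightest probes. A second Kdm3a probe, well above background on all 14 arrays, gave 0.70 in Arg1+ cells (adjusted p = 0.0366) and 0.54 in Arg1- cells (adjusted p = 0.109). Without post-TBI blood replicate 4, whose Mxi1 level of 2.22 was the highest in blood, Mxi1 was called in Arg1+ cells (0.76, adjusted p = 0.00979), and without post-TBI blood replicate 1 it was called lower in Arg1- cells (-0.71, adjusted p = 0.0428).

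Among the tested glycolytic members, companion genes aside, the phosphofructokinase step held both the highest and the lowest difference from blood. Pfkfb3, at 1.91, 2.06 and 1.54 in post-TBI blood, was 3.44 ± 0.20 higher in Arg1+ and 2.65 ± 0.20 higher in Arg1- cells (10.9-fold and 6.26-fold; adjusted p = 3.46e-09 and 1.17e-07). Pfkfb4, at 2.88, 2.25 and 2.15 in post-TBI blood, was lower, by -1.74 ± 0.24 and -1.17 ± 0.24 (adjusted p = 3.35e-05 and 0.00144), and no brain array reached the lowest blood array. Pfkp was 0.71 ± 0.21 and 1.36 ± 0.21 higher, and its call in Arg1+ cells was lost without post-TBI blood replicate 4 (0.41, adjusted p = 0.0601). That call was also lost with normexp background correction (adjusted p = 0.104), quantile normalization (0.0901), the authors' log2 table (0.0615) and only the 2 groups fitted (0.0598). The second Pfkp probe gave 0.58 (adjusted p = 0.0394) and 0.38 (adjusted p = 0.183).

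All 6 tested genes of lower glycolysis were higher than in blood in both populations. Tpi1 gave 2.62 ± 0.16 and 1.91 ± 0.16, Eno1 2.37 ± 0.23 and 1.71 ± 0.23, Eno2 2.31 ± 0.24 and 1.97 ± 0.24, Pgk1 2.26 ± 0.26 and 1.43 ± 0.26, Aldoa 2.02 ± 0.22 and 1.26 ± 0.22, and Pgam1 1.75 ± 0.20 and 0.93 ± 0.20. The adjusted p of these ranged up to 0.0018. With the outlier marks ignored, Gapdh gave 1.95 ± 0.28 and 1.01 ± 0.28, Pkm 1.92 ± 0.21 and 1.30 ± 0.21, and Pfkl 2.70 ± 0.22 and 1.96 ± 0.22, all called.

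At the entry and the exit of the pathway the values were mixed. Slc2a1 was the least even in blood, with -0.92, -0.06 and 1.51, and was 2.51 ± 0.43 and 1.91 ± 0.43 higher in brain cells. Hk1 gave 1.42 ± 0.22 and 0.98 ± 0.26, the second from 2 usable Arg1- arrays. That second call was lost with slide as a block (adjusted p = 0.059), with the replicate block (0.056) and with only the 2 groups fitted (0.0593), while the other 3 Hk1 probes gave 1.26, 0.87 and 0.75 in Arg1- cells, each called. Hk2 was called in Arg1+ cells only, which is not by itself a difference between the populations, at 1.08 ± 0.31 (adjusted p = 0.0114) against 0.53 ± 0.31. Without post-TBI blood replicate 1 or 3 the Arg1+ call was lost (adjusted p = 0.0593 and 0.0651), and without post-TBI blood replicate 4, which had the highest blood level of 1.49, Hk2 was called in Arg1- cells too (0.95, adjusted p = 0.0153). Gpi1 was called in Arg1+ cells (0.59 ± 0.20, adjusted p = 0.0272), but not in Arg1- cells (-0.10 ± 0.20). The Arg1+ call was lost without Arg1+ replicate 2 or 3 or post-TBI blood replicate 1 or 3 (adjusted p between 0.0515 and 0.132). Normexp background correction (0.116), quantile normalization (0.0825), the authors' log2 table (0.0635) and only the 2 groups fitted (0.0955) also ended it.

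Ldha was 2.04 ± 0.27 and 1.15 ± 0.27 higher from 2 usable arrays a group, the Arg1- call being lost with the replicate block (adjusted p = 0.21), and Pdk1 2.03 ± 0.25 and 1.29 ± 0.25 higher. Slc16a3 was 1.14 ± 0.25 higher in Arg1+ cells (adjusted p = 0.00217), and in Arg1- cells its 0.72 ± 0.27 stood at an adjusted p of 0.0501. Slc16a3 was called there in 10 of 28 settings, among them slide as a block (adjusted p = 0.0119), quantile normalization (0.0352) and the authors' log2 table (0.0427). It was also called without Arg1- replicate 2 (0.0376), Arg1+ replicate 4 (0.0383) or post-TBI blood replicate 4 (0.00518). The highest adjusted p without 1 array was 0.174.

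The median difference of the members from blood was 1.87, 1.71 and 1.41 within slides 1, 2 and 3 for Arg1+ and 1.10, 1.03 and 1.26 for Arg1- cells, and slide 4 held no blood array. With slide as a block 25 and 21 members were called, and the share of all features called in that fit is not given here. The 21 include Ldha, for which no slide held usable Arg1- and blood arrays. Neutrophil markers (11 tested) were higher than in blood for 2 genes and lower for 2 in Arg1+ cells, and higher for 8 and lower for 0 in Arg1- cells. Microglia markers (8 tested) were higher for 6 and 5 and lower for 1 and 1, and all 5 B cell markers were lower in both. In Arg1+ cells 4 of 5 astrocyte, 3 of 4 neuron and 3 of 4 endothelium markers were higher, and in Arg1- cells 1, 2 and 2. Of the T cell markers 3 of 5 were lower in both populations, and of the platelet markers 3 of 4 in Arg1+ and 4 of 4 in Arg1- cells. The part of these cells in the members' differences was not tested.

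The companion lists are read against the shares over all features given above, 19.9% higher and 20.0% lower in Arg1+ cells and 17.0% and 16.4% in Arg1- cells. The 23 other glycolysis genes gave 5 higher and 6 lower calls in Arg1+ cells, and 4 and 6 in Arg1- cells. Slc16a1, the lactate transporter MCT1, was 3.34 ± 0.31 and 3.29 ± 0.31 higher and Hk3 2.87 ± 0.30 and 1.83 ± 0.30, while Bpgm, the bisphosphoglycerate mutase of red cells, was lower by -5.59 ± 0.44 and -5.75 ± 0.44, Eno3, the muscle enolase, by -3.67 ± 0.31 and -3.21 ± 0.31, and the glucose transporter Slc2a3 by -2.98 ± 0.53 and -1.70 ± 0.53. Summed red cell markers were 65.1 to 123 in post-TBI blood and at most 1.18 in brain arrays, and the part of red cells in these values was not tested.

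The 38 other HIF pathway and hypoxia genes gave 17 higher and 6 lower calls in Arg1+ cells, and 14 and 6 in Arg1- cells. Slc6a8 was 5.14 ± 0.24 and 4.04 ± 0.24 higher, and Vegfa, the vascular growth factor, 4.66 ± 0.62 and 4.36 ± 0.62. Among the lower genes Ddit4, an inhibitor of mTORC1, gave -1.35 ± 0.33 and -1.32 ± 0.33, the atypical cyclin Ccng2 -1.19 ± 0.31 and -1.50 ± 0.31, and the mitophagy receptor Bnip3l -0.93 ± 0.25 and -1.83 ± 0.25. The 12 glycogen genes gave 5 higher and 2 lower calls in Arg1+ cells, against 4 and 3 in Arg1- cells. The 6 genes of the pentose phosphate pathway gave 2 and 2 such calls in Arg1+ cells, against 0 and 1 in Arg1- cells, with G6pdx, its first enzyme, lower in both (-1.12 ± 0.22 and -1.37 ± 0.22). The 29 genes of pyruvate entry and the tricarboxylic acid cycle gave 3 and 4 in Arg1+ cells, against 2 and 5 in Arg1- cells, with Idh2, the mitochondrial isocitrate dehydrogenase, higher (0.92 ± 0.19 and 0.67 ± 0.19) and the cytosolic Idh1 lower (-1.37 ± 0.28 and -1.73 ± 0.28).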

How the data were processed

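Agilent 1-colour scanner output was used, 1 file per array. Per the file headers, it was made with Feature Extraction 10.7.3.1 and holds a background-subtracted processed signal intensity, median spot and background intensities, and other values such as flags of 0 or 1. A deposited table of the authors' log2 values, with ranks equal to the median signal, served as an alternative. The submitters' processing notes name limma; its settings are not given in the sources used here. Here each processed signal was divided by the array's 75th percentile, floored at 0.05 and log2 transformed. Outlier-flagged spots were left out. Probes well above background on 3 of 14 arrays, with 2 usable arrays in each group, were kept (27605 of 41174), and the brightest probe of a symbol was used. All 4 groups entered 1 limma fit (version 3.58.1, R 4.3.3, lmFit, then eBayes with its trend option, leaving 10 residual degrees of freedom), with Benjamini-Hochberg adjustment. On simulated data the fit was tested. Replicate numbers were not used as a block, since not every same-numbered pair deviated together (correlations of -0.464 to 0.406 between the brain groups), and the blood groups share only 2 numbers (0.21 and 0.355). Genes were named through RefSeq accessions for 24844 probes. All 33 members are named, and from each companion list up to 3 called genes a direction, apart from 1 gene that is not reported here. The members and lists were chosen with earlier results of these data known. The number of arrays limits the precision.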

Additional observations from a re-analysis of the deposited data

How the results depend on the processing

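The 14 alternatives and the 14 fits without 1 array changed 130 calls of single genes to not called and 34 to called, in 3320 comparisons with the reported values, and turned no called difference around. In Arg1+ against Arg1- cells, where 10 members and 1108 features were called, the members called were 6 with normexp background correction, 5 with quantile normalization, 5 with the percentile over probes above background on all arrays, 5 with the authors' log2 table, 6 without a filter on dim probes and 6 with the replicate block. The features called were 504 with normexp. For quantile normalization, the percentile alternative, the authors' table and the missing filter the share over all features is not given here. Whether the members or the whole array moved cannot be read from those member counts. All-feature medians moved to 0.12 and 0.14 with normexp in Arg1+ cells against Arg1- cells and against blood, and the members' medians there were 0.46 and 1.35. In post-TBI against normal blood, where 33 features were called, 16 were called with normexp, 20 with the authors' table, 2 with the replicate block and 0 when only the 2 groups compared were fitted. The members' median in Arg1+ cells against blood, 2.01, was 1.55 with quantile normalization, 1.33 with the authors' table and 1.48 with a floor of 0.2. In Arg1- cells, 1.15, it was 0.94 with normexp, 0.98 with a floor of 0.2, 0.97 with the mean of a gene's probes and 1.28 with outlier-flagged spots kept, which was added after seeing the data. At a floor of 0.2 P4ha2 had no difference between Arg1- cells and blood, both being at the floor.

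Leaving out 1 array gave 602 to 1781 features called and 4 to 14 members called in Arg1+ against Arg1- cells, 602 without Arg1- replicate 3, 701 without Arg1+ replicate 3 and 1781 without post-TBI blood replicate 4, with members' medians of 0.54 to 0.77. In post-TBI against normal blood it gave 2 to 60 features (2 without post-TBI replicate 3, 60 without post-TBI replicate 1, 54 without normal replicate 3, 10 without normal replicate 2, 16 without post-TBI replicate 4, and 18 to 21 without Arg1- replicate 2, 3 or 4 or Arg1+ replicate 1, 3 or 4), 0 members, and medians of 0 to 0.13. For brain against blood it gave 7230 to 8668 features, 22 to 25 members and medians of 1.75 to 2.01 in Arg1+ cells, and 5829 to 7518 features, 18 to 22 members and medians of 0.98 to 1.24 in Arg1- cells. Same-numbered Arg1+ and Arg1- arrays had deviations correlated between -0.464 and 0.406, so the numbers were not taken as pairs; with the replicate block 833 features were called, and in the brain against blood comparisons 25 and 18 members. Dim probes limit P4ha2, Car9 and Adm, and outlier marks on bright spots limit Ldha, Gapdh, Pkm and Pfkl.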
